A study of Mus musculus with 24 samples.

Results

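The Schlafen genes are a family of interferon-inducible genes, and 7 mouse members (Slfn1, Slfn2, Slfn3, Slfn4, Slfn5, Slfn8 and Slfn9) were followed here in skin and in dorsal root ganglia (DRG), which house the sensory neurons that supply the skin. The members were taken by symbol, 7 of the 45777 genes in the deposited table. They were chosen by their measured CPM (counts scaled to library size) in model against control libraries of both tissues, so those differences are given as a description without a test. PolyA RNA had been sequenced in 4 groups of 6 libraries: control skin, skin of the rosacea model, control DRG and DRG of the model, 24 libraries in all. The animals were female BALB/c mice aged 6 weeks, and the model was made by injecting the human cathelicidin peptide LL37 into the skin at 320 µM in 40 µL over 2 days. The study text adds that gabapentin was given by mouth at 100 mg/kg from day 3 and that DRG was taken on day 4. No sample label names gabapentin, and effects of gabapentin and of LL37 cannot be told apart here. The sources used here do not say what the controls received or when skin was taken. Nothing ties a library to a single animal, so the p-values refer to spread among these samples alone, and that spread may be technical.

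Schlafen proteins share a core domain that binds or cuts RNA, tRNA in particular, and several of them slow protein synthesis or cell growth. The name is German for "to sleep", after the growth arrest that Slfn1 caused in thymocytes. Mouse members fall into short proteins (Slfn1 and Slfn2), intermediate ones (Slfn3 and Slfn4) and long ones that add a helicase-like part (Slfn5, Slfn8 and Slfn9). Interferon receptors signal through JAK kinases to STAT and IRF factors, which bind DNA elements of the form GAAANNGAAA and switch on these genes, mostly in immune cells.

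Libraries held 45238735 to 68396846 counts, so 3 counts over a group corresponded to 0.00864 to 0.00930 CPM. The 12 skin libraries held summed keratinocyte markers at 6301 CPM or more and the 12 DRG libraries at 4.96 CPM or less, while summed sensory neuron markers were at 4936 CPM or more in DRG and at 44.3 CPM or less in skin. Both tissue labels were thus met by their defining markers. Library 2 of model skin stood apart in lymphocyte markers, with summed B cell markers at 143 CPM against a group median of 2.35. Library 5 of model DRG stood apart in blood cell markers, with summed neutrophil markers at 717 CPM against at most 129 CPM in the other 5 libraries, and summed platelet and erythroid markers at 1170 CPM against at most 367.5 CPM.

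The 7 genes lie in 1 cluster on chromosome 11 with Slfn10-ps and Slfn14, and some of their promoters hold shared sequence. In GRCm38 the cluster, counted from the antisense gene Slfn5os that overlaps Slfn5 to the end of Slfn14, runs from 82942341 to 83286726, a span of 344.4 kb. Slfn5 (gene 327978, 82951349 to 82964850), Slfn2 (20556, 83065112 to 83070678), Slfn1 (20555, 83116820 to 83122670), Slfn4 (20558, 83175172 to 83190216) and Slfn3 (20557, 83191330 to 83215154) are on the plus strand. Slfn9 (237886, 82974316 to 82991830) and Slfn8 (276950, 83002125 to 83020810) are neighbours on the minus strand.

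RefSeq promoter sequences of GRCm38.p6, from the C57BL/6J genome rather than BALB/c, were matched for 7 of 7 members, and the 250 bases before each start were compared. Those of Slfn8 and Slfn9 were alike, with 79.8% identical positions in a global alignment, whereas none of the other pairs among the 9 family genes with a RefSeq promoter here, which leave out Slfn10-ps, exceeded 49.1%. Both windows held GAAANNGAAA on the opposite strand of the gene (in capitals), at 48 to 39 and 45 to 36 bases before the start. They are shown because this pair of neighbours differed in the skin values given further on.
Slfn8 promoter, chr11:83020811-83021060, minus strand: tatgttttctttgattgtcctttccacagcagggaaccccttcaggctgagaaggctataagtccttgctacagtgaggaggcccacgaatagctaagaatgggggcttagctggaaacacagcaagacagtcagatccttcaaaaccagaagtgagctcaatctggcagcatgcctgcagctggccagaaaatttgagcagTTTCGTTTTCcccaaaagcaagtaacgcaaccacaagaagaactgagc
Slfn9 promoter, chr11:82991831-82992080, minus strand: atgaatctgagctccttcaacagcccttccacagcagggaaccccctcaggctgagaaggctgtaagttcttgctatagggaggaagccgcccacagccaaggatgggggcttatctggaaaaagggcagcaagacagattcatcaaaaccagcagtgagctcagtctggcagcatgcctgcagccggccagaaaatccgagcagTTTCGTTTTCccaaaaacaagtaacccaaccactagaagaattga
Searched on both strands, GAAANNGAAA was present in Slfn5, Slfn8 and Slfn9, and not in the windows of the other 4 members. The windows of Slfn5 and Slfn4 belong to RefSeq starts that lie inside the gene bodies given above. That of Slfn5 was chr11:82951852-82952101, so its match does not lie upstream of the printed gene. The matched letters there, GAAAAAGAAA, run into a stretch of A. In all promoter windows of the same length, 2.98% of 32851 held it. The STAT-type element TTCNNNGAA was in none of the 7 windows and in 7.02% of all windows.

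The short and intermediate members shared another run of letters. The longest sequence common to the promoters of Slfn1, Slfn2, Slfn3 and Slfn4 was ACTTCCTGG, of 9 bases, on the gene's strand and 34 to 74 bases before the start. It was found by comparing these promoters with each other, so its presence in all 4 is by construction; 0.7% of all windows held it on either strand. Slfn1 and Slfn4, the pair with the largest skin differences, shared a longer run, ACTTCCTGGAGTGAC, of 15 bases, which overlaps the shorter one. This run too was found by comparing the 2 promoters, so its presence in both is by construction. It was in 2 of the 32851 windows, their own. The longest runs of other pairs were not compared, and nothing about the skin differences is read from it. A match describes letters and not a binding site. The 60 bases around the 9-base run (in capitals) show how far the likeness goes.
Slfn1, chr11:83116721-83116780, plus strand: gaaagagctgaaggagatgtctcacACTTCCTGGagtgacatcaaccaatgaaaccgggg
Slfn4, chr11:83175088-83175147, plus strand: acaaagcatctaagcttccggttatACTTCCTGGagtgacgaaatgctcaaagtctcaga
Slfn2, chr11:83065032-83065091, plus strand: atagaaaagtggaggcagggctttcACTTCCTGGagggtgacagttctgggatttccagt
Slfn3, chr11:83191263-83191322, plus strand: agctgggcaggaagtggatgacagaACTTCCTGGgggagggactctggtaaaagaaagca

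How the family differed in skin injected with LL37 was read from model against control skin. In model skin 6 of the 7 genes were higher in each of the 6 libraries than in any control library, by 3.24-fold for Slfn3 up to 130-fold for Slfn4, while Slfn9 was at nearly the same level. Of all 19526 genes tested, 6.84% were higher without overlap in this way, and 19.9% passed edgeR's quasi-likelihood (QL) test after Benjamini-Hochberg (BH) adjustment, with 0.05 as the threshold (14.1% higher and 5.82% lower in model skin), against 6 of 7 members by either measure. Since this contrast was in view when the members were chosen, nothing is read from these shares. The median log2 fold change was 2.77 for the 7 members, all of which passed the filter on low counts, and -0.02 for all genes tested. Levels below are CPM scaled by TMM, given as lowest, median and highest of 6 libraries, and fold changes come from edgeR with their standard error (SE) on the log2 scale.

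Slfn4, known from macrophages exposed to interferon or bacterial products, had the largest difference. It was at 0.775, 2.74 and 4.71 CPM in control skin and at 31.6, 366 and 657 CPM in model skin, a log2 fold change of 7.02 (SE 0.84). The lowest model library was thus still well above the highest control library, and the model libraries differed 20.8-fold among themselves.

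Slfn1, the founding growth-regulatory member, was at 0.39, 0.952 and 2.08 CPM in control skin and at 6.315, 43.1 and 51.9 CPM in model skin, a log2 fold change of 5.03 (SE 0.60). Slfn2, whose loss in mice breaks the resting state of T cells and monocytes, was at 6.88, 10.2 and 16.8 CPM in control skin and at 29.1, 85.7 and 92.1 CPM in model skin, a log2 fold change of 2.77 (SE 0.33). For both genes library 5 was lowest and library 3 next lowest of the model libraries, and the other 4 lay close together. Slfn3, studied mainly in the intestinal epithelium, stayed low: it was at 0.415, 0.506 and 0.76 CPM in control skin and at 1.10, 1.55 and 2.685 CPM in model skin, a log2 fold change of 1.70 (SE 0.24).

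Among the long members, Slfn5, a nuclear protein known as a regulator of transcription, was at 23.6, 32.8 and 45.1 CPM in control skin and at 59.7, 143 and 212 CPM in model skin. Its log2 fold change was 2.16 (SE 0.29). Slfn8 was at 2.14, 3.29 and 4.78 CPM in control skin and at 8.79, 36.1 and 47.8 CPM in model skin, a log2 fold change of 3.29 (SE 0.38). Slfn9, its neighbour with the similar promoter printed above, was at 17.5, 20.2 and 39.7 CPM in control skin and at 18.8, 28.9 and 36.4 CPM in model skin, a log2 fold change of 0.23 (SE 0.23). The ranges of Slfn9 overlapped, and no model library was above the highest control library. That control was library 6, and the other controls were at 26.75 CPM or less. Without control library 6 the log2 fold change of Slfn9 was 0.44 (SE 0.19). Slfn8 and Slfn9 are close relatives, and the sources used here do not say how reads matching both were assigned, so their split is uncertain. The same limit holds for the other Schlafen genes, Slfn10-ps among them. Slfn3, for one, had 568 counts over model skin beside 117945 for Slfn4. An antisense gene, Slfn5os, overlaps Slfn5 but had at most 4 counts in any library.

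**Figure D1:**
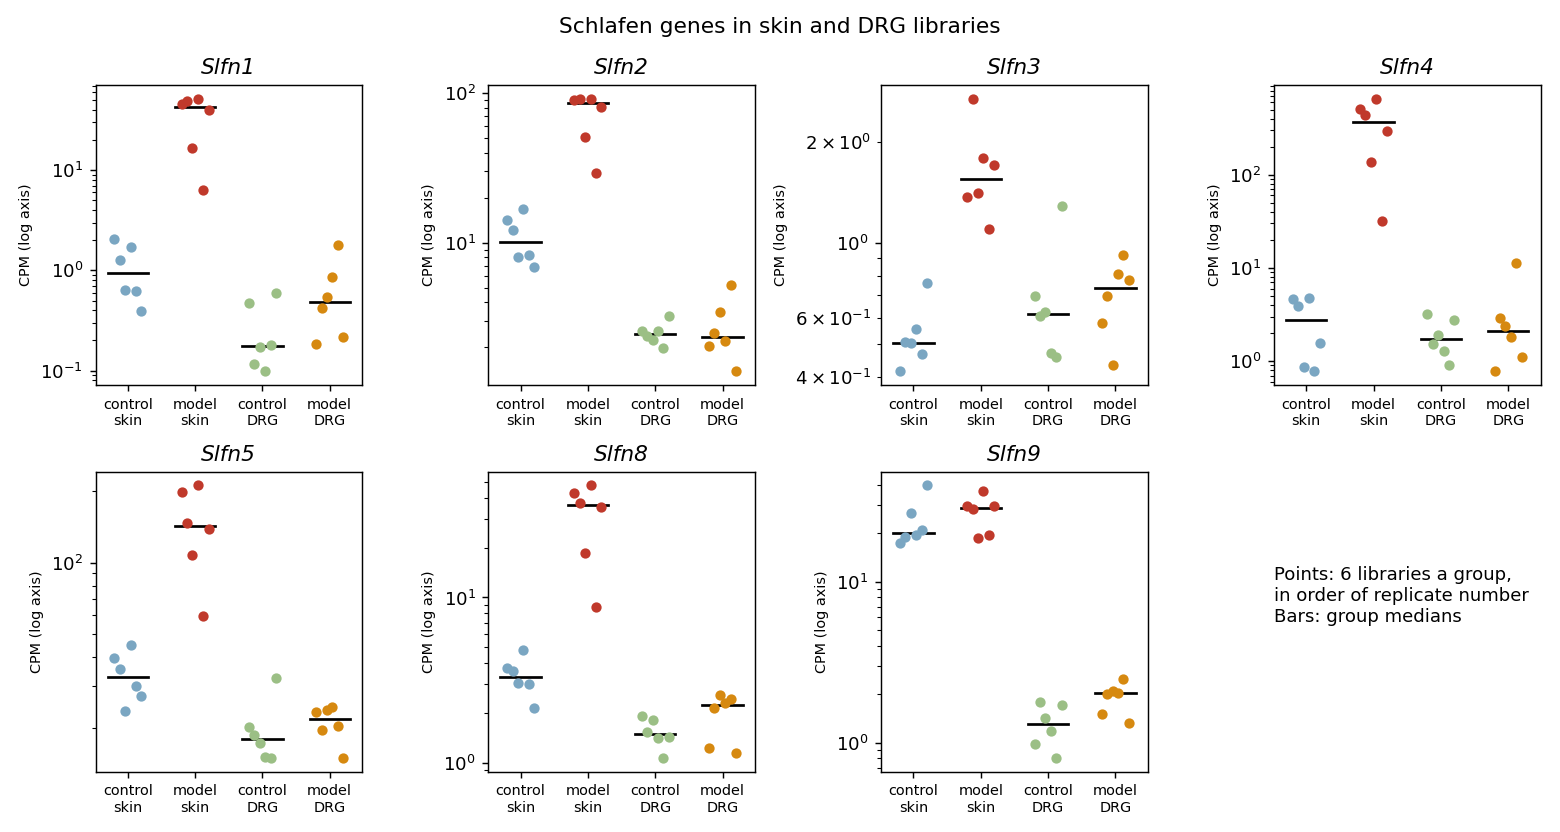
CPM (log axis) of the 7 Schlafen genes in each of the 24 libraries, with 6 points a group in order of replicate number and a bar at the group median. All 6 model skin libraries lie above all control skin libraries for every gene but Slfn9, and Slfn4 reaches 657 CPM in model skin.

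The model skin libraries kept much the same order from gene to gene. Slfn4, Slfn5 and Slfn8 had the same order of all 6 libraries, with library 4 highest, then 1, 2, 6, 3 and 5. Library 5 was lowest for 6 of the 7 members, and library 3 was lowest for Slfn9. Without library 5 the log2 fold change was 7.31 for Slfn4, 5.29 for Slfn1 and 3.53 for Slfn8, and without library 2, the one with high lymphocyte markers, it was 6.97, 4.92 and 3.26.

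The make-up of the family, compared per transcript length in the authors' TPM, a level scaled to transcript length, differed between the groups. Summed TPM of the 7 genes was 35.3 ± 8.63 in control skin and 409 ± 223 in model skin (mean ± SD, n = 6). In control skin Slfn2 and Slfn5 led, with 13.9 ± 4.92 and 11.5 ± 2.75 TPM, and their ranges overlapped, with Slfn2 above Slfn5 in 4 of 6 libraries. Slfn9 followed at 4.81 ± 1.76 TPM, then Slfn8, Slfn4, Slfn1 and Slfn3 between 1.77 and 0.604 TPM, where each neighbouring pair overlapped. In model skin Slfn4 led with 194 ± 136 TPM, above Slfn2 (96.6 ± 36.6 TPM) in 5 of 6 libraries, followed by Slfn5, Slfn1, Slfn8, Slfn9 and Slfn3, where each neighbouring pair but Slfn9 and Slfn3 overlapped. Slfn4 thus went from a median of 3.99% of the family's TPM in control skin (range 1.51 to 5.85%) to 45.1% in model skin (range 18.5 to 55.6%). The share of Slfn9 went from a median of 12.6% (range 8.12 to 27.2%) to 1.38% (range 1.13 to 4.30%).

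**Figure D2:**
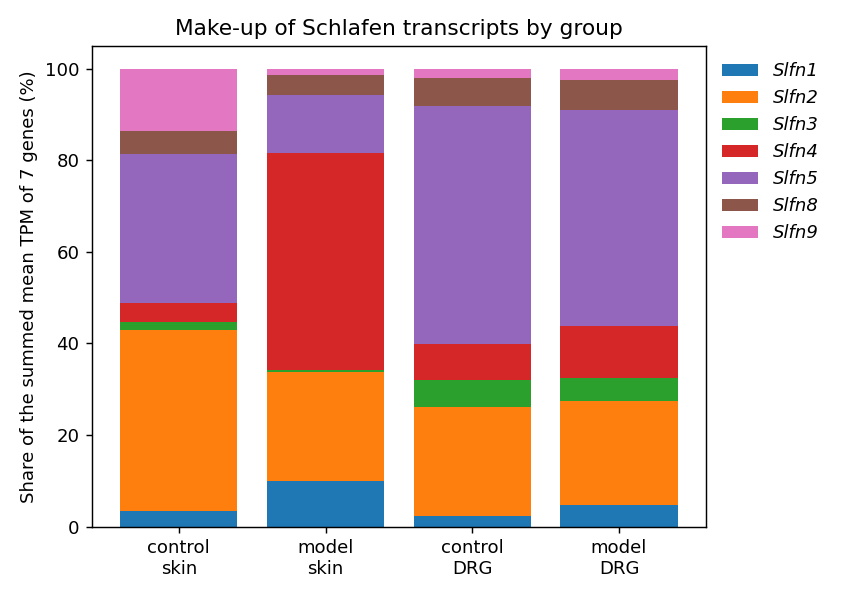
Stacked bars of each gene's share (%) of the summed mean TPM of the 7 Schlafen genes in the 4 groups. Slfn4 makes up 4.14% in control skin and 47.49% in model skin, while Slfn5 is the largest part in both DRG groups at 52.03% and 47.05%.

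In DRG most members were at lower levels than in skin. Between the control tissues Slfn3 and Slfn4 were exceptions, since their differences did not pass edgeR's test, as given further on. The model and control DRG libraries overlapped for all 7 genes. Of 19509 genes tested, 0.548% had model and control libraries that did not overlap and 0.0974% passed edgeR's test, against 0 of 7 members by either measure. All 7 members passed the filter, and DESeq2 called 0. An unadjusted p under 0.05 in edgeR was reached by 1 of 7 members and by 9.34% of all genes, and since this contrast was used to choose the members nothing is read from that count. The median log2 fold change of the members was 0.37, and that of all genes tested -0.01.

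Slfn5 was the most abundant member in DRG, at 14.9, 18.0 and 32.6 CPM in control and at 15, 21.8 and 24.6 CPM in model DRG. Its log2 fold change was 0.09 (SE 0.19). Per length, its 7.80 ± 2.51 TPM in control DRG lay above Slfn2 at 3.57 ± 0.629 TPM without overlap, and Slfn2 above Slfn4 at 1.17 ± 0.558 TPM without overlap, whereas from Slfn4 downward each neighbouring pair overlapped. Slfn2 was at 1.96, 2.46 and 3.21 CPM in control and at 1.38, 2.36 and 5.22 CPM in model DRG, a log2 fold change of 0.17 (SE 0.26).

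Slfn4 was at 0.916, 1.73 and 3.20 CPM in control and at 0.776, 2.097 and 11.2 CPM in model DRG, a log2 fold change of 0.80 (SE 0.60). The highest value was that of library 5, and the other 5 model libraries were at 2.87 CPM or less. Slfn1 was at 0.0982, 0.177 and 0.597 CPM in control and at 0.183, 0.481 and 1.80 CPM in model DRG, a log2 fold change of 1.27 (SE 0.60), again with library 5 highest. Without library 5 the log2 fold change was -0.11 for Slfn4, 0.69 for Slfn1, -0.10 for Slfn2 and -0.08 for Slfn3. That library also held the highest blood cell markers of the group, and their part in the result was not tested.

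Slfn8 was at 1.06, 1.48 and 1.92 CPM in control and at 1.14, 2.23 and 2.55 CPM in model DRG, and Slfn9 at 0.802, 1.30 and 1.80 CPM and at 1.33, 2.03 and 2.48 CPM. Their log2 fold changes were 0.37 (SE 0.22) and 0.54 (SE 0.21), and for each of them 4 of 6 model libraries were above all controls. Slfn3 was at 0.458, 0.615 and 1.29 CPM in control and at 0.434, 0.736 and 0.92 CPM in model DRG, with a log2 fold change of 0.02 (SE 0.27). The skin and DRG values stand side by side here, and the difference between the tissues in the model effect was not tested.

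**Figure D3:**
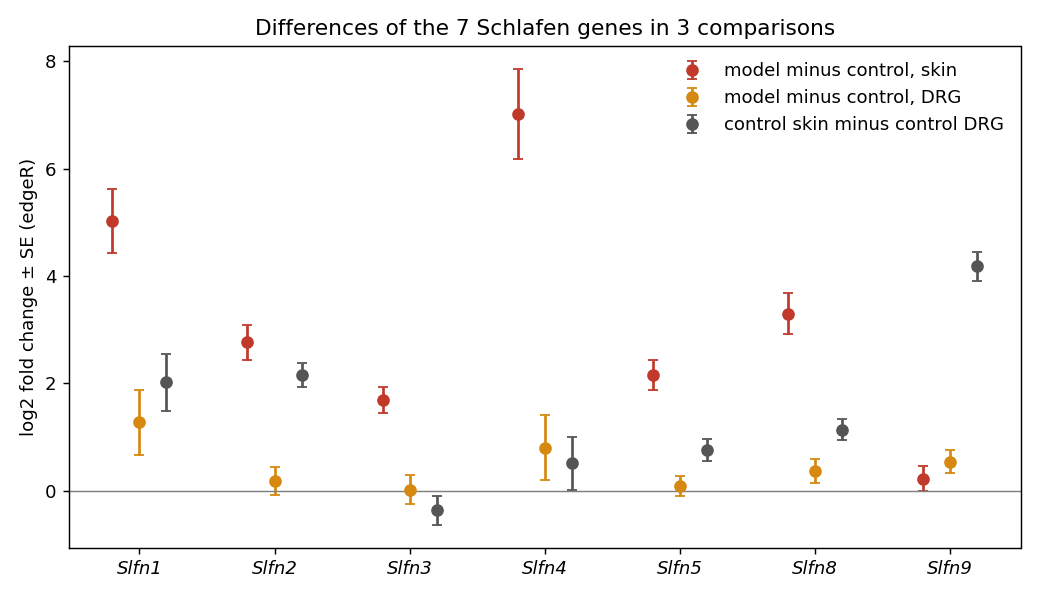
edgeR log2 fold change with its SE for the 7 Schlafen genes in model against control skin, model against control DRG, and control skin against control DRG. The skin values reach 7.02 for Slfn4, the DRG values stay at 1.27 or below, and Slfn9 stands highest in the comparison of the control tissues at 4.18.

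Control skin and control DRG were compared as a contrast that had not been used to choose the members. The members that were higher in skin were led by Slfn9: its level of 23.9 ± 8.40 CPM in control skin was 18.2-fold that of control DRG at 1.32 ± 0.402 CPM (edgeR QL, BH-adjusted p = 7.794e-09). Slfn2 was 4.45-fold higher in skin, at 11.1 ± 3.96 against 2.48 ± 0.424 CPM (edgeR QL, BH-adjusted p = 1.09e-06), and Slfn8 2.201-fold higher, at 3.37 ± 0.888 against 1.53 ± 0.305 CPM (edgeR QL, BH-adjusted p = 0.0001399). For these 3 genes every skin library lay above every DRG library.

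Slfn1 was 4.05-fold and Slfn5 1.69-fold higher in control skin (edgeR QL, BH-adjusted p = 0.00293 and 0.00378), with 5 and 3 of 6 skin libraries above all DRG libraries. Slfn3 and Slfn4 did not pass (edgeR QL, BH-adjusted p = 0.217 and 0.343), at log2 differences of -0.37 (SE 0.27) and 0.51 (SE 0.49), which do not show that the tissues are alike. Most genes differed between these tissues: 83.3% of the 20448 genes tested passed and 41.4% were higher in skin, and 69.3% had no overlap, with 33.2% higher in skin. Counts of 5 and 3 members among 7 stand beside that background, and nothing particular to the family is read from them. Slfn9 had the largest tissue difference of the 7 members and, beside it, the smallest difference between model and control skin.

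The 3 remaining family genes were followed as well. Slfn10-ps, which lies between Slfn8 and Slfn2 and carries the suffix of a pseudogene but is annotated as a miscellaneous RNA, rose from 2.18 ± 0.788 to 4.68 ± 1.43 CPM in model skin, a log2 fold change of 1.16 (edgeR QL, BH-adjusted p = 0.0126). In 5 of the 6 model libraries it exceeded every control. It was 13.8-fold higher in control skin than in control DRG (edgeR QL, BH-adjusted p = 4.557e-08). Slfn14, which encodes a ribosome-associated nuclease known from platelets and red blood cells, had 3 counts over the control skin group and 0 over the model skin group, and was read in DRG. It was at 0, 0.187 and 0.629 CPM in control and at 0.129, 0.665 and 3.50 CPM in model DRG, a log2 fold change of 2.05 (SE 0.87; edgeR QL, BH-adjusted p = 0.515). Its highest value, like that of summed platelet and erythroid markers, was in library 5 of model DRG, and without that library its log2 fold change was 1.16. Within control DRG, too, library 6 was highest for both, at 0.629 CPM of Slfn14 and 385.5 CPM of the markers against 297 CPM or less in the other libraries. Slfnl1, a more distant relative on chromosome 4, had at most 11 counts in a library.

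The neighbours of the cluster that edgeR tested in skin had log2 fold changes of -0.20 to 0.31. These values surround that of Slfn9 at 0.23 and lie below those of the other 6 members. Of the 3 nearest named protein-coding genes on each side, 5 of 6 were tested in skin and 1 rose: Ap2b1, an adaptor subunit of clathrin-coated vesicles, with a log2 fold change of 0.31 (edgeR QL, BH-adjusted p = 0.00791). DESeq2 called 2, Ap2b1 and Fndc8, the latter not tested in edgeR because of its low counts and named here after its value was seen (DESeq2 log2 fold change 1.99, BH-adjusted p = 0.0483). The value of Fndc8 lay within the range of the members and rested on 87 counts over model and 23 over control skin. Rad51d and Nle1, on the side of Slfn5, were at 0.19 and -0.20 (edgeR QL, BH-adjusted p = 0.305 and 0.407). The median of the 5 was 0.19, and in DRG 0 of 5 passed in edgeR, where 0 had an unadjusted p under 0.05; DESeq2 likewise called 0.

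**Figure D4:**
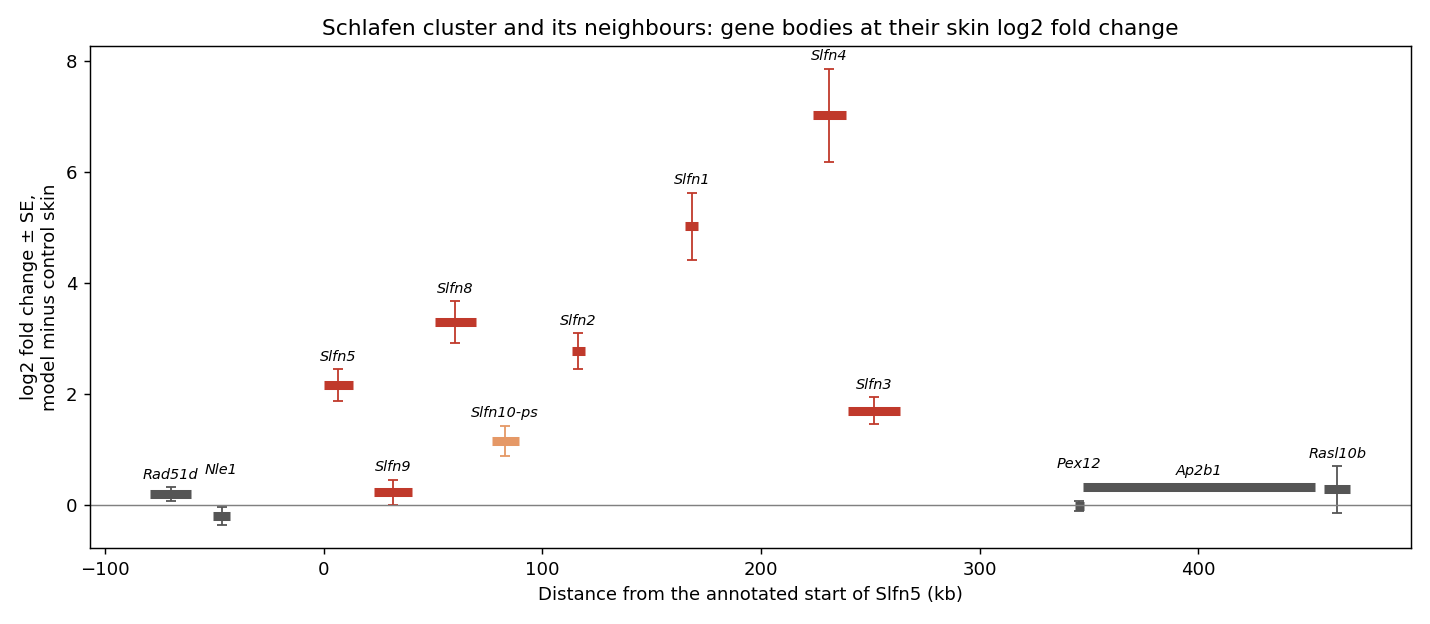
Gene bodies of the Schlafen cluster and its neighbours, by distance from the annotated start of Slfn5 (kb), each at its log2 fold change (with SE) in model against control skin. Members are red, Slfn10-ps orange and neighbours grey. Slfn1 and Slfn4 stand highest at 5.03 and 7.02, with Slfn9 at 0.23 between Slfn5 and Slfn8, and the neighbours shown are close to 0. Fndc8 and Slfn14, not tested by edgeR in skin, and Slfn5os are not drawn.

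Of the interferon pathway upstream of the family, the ligands were hardly read. The 20 interferon genes listed had summed levels of 0 to 0.393 CPM in control skin and 0.0571 to 0.456 CPM in model skin, and 0 of 20 passed the filter. Ifnb1, which encodes interferon beta, had 0 counts over the 6 control skin libraries and 23 over the 6 model skin libraries, and Ifng, interferon gamma, had 21 and 46. The 16 genes at 0 counts in model skin included all the interferon alpha genes listed.

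Most of the listed receptor and signalling genes were higher in model skin. Of 6 interferon receptor genes 4 rose, with a list median log2 fold change of 0.55. They included both chains of the type I receptor, Ifnar1 from 54.2 ± 3.24 to 74.3 ± 7.62 CPM and Ifnar2 from 14.8 ± 2.299 to 41.6 ± 12.1 CPM, and Il10rb, a chain of the type III receptor, from 24.3 ± 0.967 to 42.9 ± 8.92 CPM. Their BH-adjusted p-values in edgeR's QL test were 0.00134, 0.000582 and 0.00137. Ifnlr1, the other type III receptor gene listed, went the other way, from 24.5 ± 3.08 to 19.1 ± 4.59 CPM. Its log2 fold change of -0.32 did not pass (edgeR QL, BH-adjusted p = 0.137), and it is named after its value was seen. Of 11 JAK, STAT and IRF genes 9 rose and 1 fell, with a median of 1.05. Irf7, which amplifies interferon responses, rose 13.6-fold, Stat2, a part of the complex that binds GAAANNGAAA, 2.62-fold, and Irf5 2.08-fold (edgeR QL, BH-adjusted p = 0.000548, 0.000552 and 0.000553). The gene that fell was Irf3, which is switched on by sensors of viral infection, at a log2 fold change of -0.20 (edgeR QL, BH-adjusted p = 0.0488). It was singled out after its value was seen, and no gene of these lists was called lower by limma on TPM or without the filter on low counts.

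Of 5 feedback inhibitors 3 rose: Usp18, which blocks the type I receptor, 7.62-fold, Socs1, an inhibitor of JAK kinases, 1.59-fold and the phosphatase gene Ptpn6 2.53-fold. BH adjustment of edgeR's QL test gave p-values of 0.000582, 0.00829 and 0.00165, in that order from Usp18 to Socs1 and Ptpn6. All 12 interferon-stimulated reference genes rose, with a median of 3.60. This list and the others were chosen with earlier results of these data known, so their calls are not independent of that choice. Oasl2, Bst2 and Ifi44, all induced by type I interferon, rose 10.6-fold, 11.1-fold and 27.9-fold, each with the same BH-adjusted p in edgeR's QL test, 0.000548. Summed levels of the 12 genes were 31.3 to 54.8 CPM in control and 108.5 to 1038 CPM in model skin, lowest in library 5 and highest in library 1. Slfn4 was at 2.14 to 10.7% of that sum in control skin and at 29.2 to 100.7% in model skin. Slfn8 stayed at 6.496 to 10.3% and 4.12 to 8.35%, and Slfn5 was at 58.4 to 97.3% and 19.1 to 55.1%.

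Among genes that act on tRNA or translation beside the Schlafen proteins, Eif2ak2, the kinase PKR, rose 2.37-fold in skin and Eif2ak3, the kinase PERK, 1.22-fold (edgeR QL, BH-adjusted p = 0.000785 and 0.0221). The call of Eif2ak3 was lost with limma on TPM (limma, BH-adjusted p = 0.0506). The tRNA-cutting nuclease gene Ang was at 4.28 ± 0.693 and 4.49 ± 0.807 CPM. Of 7 regulators of T cell quiescence 1 rose, Klf2, 3.46-fold (edgeR QL, BH-adjusted p = 0.00343), and the list median was -0.08. Foxo1 and Tob1, of the same list, were at log2 fold changes of -0.28 and -0.35 (edgeR QL, BH-adjusted p = 0.12 and 0.14), and both passed without control library 2 (edgeR QL, BH-adjusted p = 0.0309 and 0.0454).

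In DRG 0 genes of these lists, or of the cell type lists below, passed in edgeR, and 0 were called by DESeq2. Of the 12 reference genes 2 had an unadjusted p under 0.05 in edgeR, Ifit1 and Mx2, at log2 fold changes of 0.44 and 0.25 (edgeR QL, BH-adjusted p = 0.52 and 0.494). Over the other pathway lists, an unadjusted p under 0.05 was reached by 1 of 11 JAK, STAT and IRF genes, Stat2 at 0.14, and by 2 of 7 quiescence genes, Foxp1 and Btg2 at 0.39 and 0.33 (edgeR QL, BH-adjusted p = 0.46, 0.468 and 0.465). Of the cell type lists, it was reached by 2 of 12 neutrophil, 3 of 5 B cell, 1 of 8 platelet and erythroid and 1 of 4 glial markers. The share over all 19509 genes tested was 9.34%, and nothing is read from these counts. Summed B cell markers in model DRG were at 39.38 CPM in library 5 and at most 10.77 CPM in the other libraries. Summed levels of the reference genes were 104 to 150.6 CPM in control and 129.6 to 176 CPM in model DRG.

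Many markers of immune cells were higher in model skin. All 12 monocyte and macrophage markers rose (median 2.39 on the log2 scale), and their summed level was 216 to 575 CPM in control and 749.7 to 2338 CPM in model skin. Adgre1 and Cd68 head that list, and none of its genes was at 0 in any group. Library 5 was lowest among the model libraries for this sum, as it was for 6 Schlafen genes. It was also lowest for summed neutrophil (61 CPM), NK cell (10.85 CPM) and platelet and erythroid markers (66.52 CPM), so this is not particular to 1 cell type. Its summed T cell and B cell markers, at 38.9 and 14.6 CPM, were exceeded only in library 2. What these library orders mean for the Schlafen genes was not tested. All 7 NK cell markers rose, as did 6 of 9 T cell markers, 3 of 3 B cell markers and 3 of 7 neutrophil markers tested. DESeq2 called 3 T cell markers and 1 B cell marker, having given a p for 4 and 1 of them. Model library 2 carried most of the lymphocyte signal, with summed B cell markers at 143 CPM against 14.6 CPM or less in the other model libraries, and without it edgeR again called 6 and 3. Without control library 1 it called 5 of 5 B cell and 1 of 6 platelet and erythroid markers. Summed NK cell markers were at 2.53 to 6.29 CPM and 10.9 to 37.9 CPM, and summed T cell markers at 7.91 to 21.4 and 20.7 to 224 CPM, or to 38.9 CPM without model library 2. Of platelet and erythroid markers 3 of 6 rose, of sensory neuron markers 1 of 5, and of keratinocyte and glial markers 0 of 5 and 0 of 4, of which 0 and 1 had an unadjusted p under 0.05 in edgeR; DESeq2 called 0 of either. Summed neutrophil markers overlapped, at 21.6 to 278 and 61.0 to 248 CPM, but the overlap rested on control library 1, and the other 5 controls were at 58.8 CPM or less. In bulk tissue, more cells of a type and more RNA per cell cannot be told apart, and the part of these cells in the Schlafen values was not tested.

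Set against the monocyte and macrophage sum, the members differed from each other. Ratios to the sums of other cell types were not taken. Slfn4 was at 0.216 to 0.878% of the sum in control skin and at 4.22 to 30.2% in model skin, and Slfn1 at 0.175 to 0.39% and 0.842 to 2.56%, with no overlap for either. Slfn2 was at 2.29 to 3.29% and 3.48 to 4.81%, also without overlap, and Slfn8 at 0.697 to 1.23% and 1.17 to 2.199%, with 5 of 6 model libraries above all controls. Slfn5 stayed at 7.43 to 12.6% and 5.91 to 9.90%, and Slfn3 at 0.0779 to 0.352% and 0.0683 to 0.146%. Slfn9 was lower relative to the sum, at 3.28 to 18.4% in control and 1.27 to 2.59% in model skin.

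**Figure D5:**
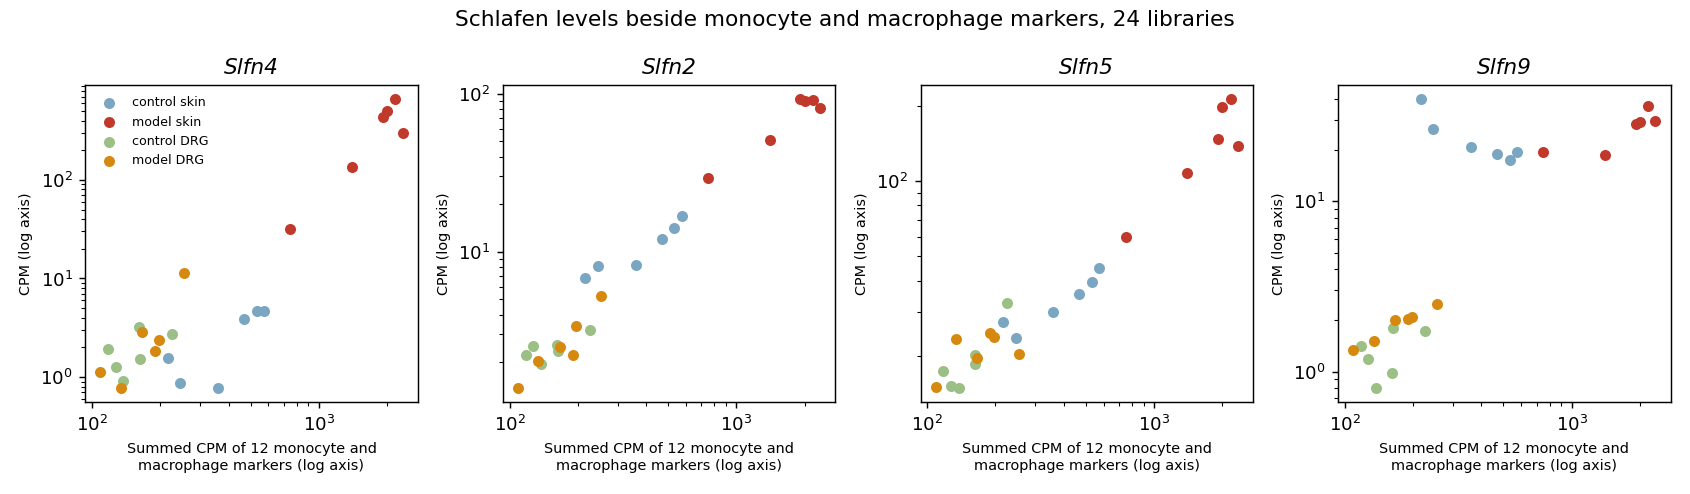
CPM (log axis) of Slfn4, Slfn2, Slfn5 and Slfn9 against the summed CPM of 12 monocyte and macrophage markers (log axis), 1 point per library and 24 in all, coloured by group. All 6 model skin libraries lie above the control skin libraries in the marker sum and in Slfn2 and Slfn5, Slfn4 reaches 657 CPM in model skin, and Slfn9 separates by tissue.

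The genes whose profile over the 24 libraries came closest to each member were found by the root mean square (RMS) difference of centred log2 CPM. For Slfn4 they were Oas3, Ms4a4c and Plac8, at 0.93, 0.99 and 1.004, and for Slfn1 Oas3, Plac8 and Ifi209, at 0.41, 0.48 and 0.62. Slfn2 was closest to Cd53, Pirb and Cd84 (0.25, 0.28 and 0.34), and Slfn8 to Oas2, Trim30a and Ms4a6c (0.26, 0.27 and 0.32). Slfn5 was closest to Ifitm3, Unc93b1 and Tmem106a (0.25, 0.26 and 0.27), and Slfn3 to Ptprj, Arap3 and Icam2 (0.35, 0.37 and 0.37). The nearest profiles to Slfn9 were those of Pbk, Itprip and Kcnk6 (0.41, 0.42 and 0.43), genes higher in skin than in DRG in both conditions. No nearest gene was shared by Slfn8 and Slfn9.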

How the data were processed

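The authors' table gives raw read counts for each gene, not normalized, per the file headers, and the authors' TPM (scaled to transcript length and library size) served to compare levels between genes and in 1 alternative. FPKM was not used. GRCm38/mm10 with HISAT2 2.1.0, StringTie 2.1.3b, Trimmomatic and bcl2fastq 2.20.0 are listed in the submitters' processing notes; counting rules and strand setting were not stated in the sources. Groups came from sample titles, and columns from library names. The members and gene lists were chosen with earlier results of these data known. Each comparison was fitted across all genes with edgeR 4.0.16 (R 4.3.3): filterByExpr, TMM, robust quasi-likelihood F test, two-sided, BH threshold 0.05. Printed CPM used TMM factors over all 24 libraries, so their ratios can differ slightly from the fitted folds. Alternatives were DESeq2 1.42.0, RLE factors, no filter, all 24 libraries in 1 fit, a replicate block, limma 3.58.1 on log2(TPM + 1) and each library left out in turn. The fit was tested on simulated data. Of 60 pairs of libraries within groups none was a duplicate (lowest chi-square per gene 8.48).

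All members and the 3 other family genes are named. From each pathway list up to 3 genes with the smallest p were named in each tissue; 1 result of the list on tRNA and translation is not reported here. Nearest profiles used log2(CPM + 0.1) over genes of at least 0.5 CPM in a library, gene models left out. Promoter windows came from RefSeq, GRCm38.p6. Floors cover counting error only.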

Additional observations from a re-analysis of the deposited data

Results flagged for a closer look

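Some libraries lay apart from the other 5 of their group by Dixon's test at the 95% level. The test was run on 36 sets, each of 1 gene in 1 group, and flags about 1 in 20 of them by chance. In model DRG, library 5 was apart for Slfn4 at 11.24 CPM and for Slfn14 at 3.50 CPM. In control DRG, library 6 was apart for Slfn5 at 32.62 CPM and for Slfn3 at 1.29 CPM. Summed monocyte and macrophage markers were highest in the same library, at 225.5 CPM. So were summed neutrophil (201.2 CPM), T cell (3.128 CPM), NK cell (1.725 CPM), B cell (9.805 CPM) and platelet and erythroid markers (385.5 CPM). In control skin, library 3 was apart for Slfn14 at 0.052 CPM, which is 3 counts. The other 5 libraries were at 0, where the chance rate given above need not hold.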

How the results depend on the processing

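The 6 Schlafen genes higher in model skin kept direction and size within the spread between replicates in every alternative but 1: on the log2(TPM + 1) scale of limma Slfn3 was at 0.90, since the added 1 compresses low levels. On that scale Slfn9 was at 0.16 and Slfn14 at 0.47 in DRG. Genes called over the whole table in skin numbered 3892, against 6820 with all 24 libraries in 1 fit and 2564 to 6278 with a library left out, the most without control library 2. In DRG they numbered 19, against 143 with DESeq2, 32 with all 24 libraries and 11 to 36 with a library left out, the most without model library 6. Pathway genes called lower in skin numbered 1, against 3 with all 24 libraries, 0 with limma, 0 with no filter and 0 to 4 with a library left out, where only the fit without control library 2 gave any. Rasl10b in DRG, at -0.08, ranged from -0.12 to 0.052 with a library left out and was above 0 only without control library 5; the cause of these shifts was not tested.

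Replicate numbers gave no sign of pairing where this was checked. Between control and model, deviations of same-numbered libraries correlated at -0.53 to 0.29 in skin and -0.49 to -0.03 in DRG. Between control skin and control DRG they correlated at -0.04 to 0.08, and the same number was the best match for 2 of 6 libraries. Model skin and model DRG were not compared in this way, and whether skin and DRG came from the same animals is not known. With the replicate block 2804 genes were called in skin and 6 in DRG, Slfn4 was at 6.88 in skin, 32 pathway genes were called higher and 0 lower, and Eif2ak3 was lost (edgeR QL, BH-adjusted p = 0.0598). At this depth Slfn1, Slfn3 and Slfn14 in DRG rest on few counts, down to 5, 24 and 0 in a control library, which limits their precision.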
